A study of Mus musculus with 6 samples.

Results

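The genes described are the 7 IGF-binding protein genes *Igfbp1* to *Igfbp7* and the 3 *Igf2* mRNA-binding protein genes *Igf2bp1* to *Igf2bp3*. They were chosen by symbol, as 10 of the 30281 gene symbols in the transcript table. The rule uses no measured value, but the families were chosen with earlier results of these data known. All 10 symbols were found, and their transcripts were summed per gene. RNA-seq was run on 6 mouse libraries, 1 for each condition. Mouse embryo fibroblasts (MEFs) gave 1 library of Tsc2-/- and 1 of Tsc2+/+ cells, both of genotype p53-/- and both labelled as given no treatment. The other 4 came from MKOC and TJ cells, which are Tsc2-null kidney epithelial lines by their labels. The TJ line is said to derive from a secondary tumor in C57BL6 mice. Each kidney line was either left untreated or given 100 nM rapamycin, a drug, for 18 hours in serum-free medium. No kidney line labelled as having intact *Tsc2* was included, so nothing in the kidney cells can be assigned to the genotype. Rapamycin was replicated only across the 2 lines, and the labels do not say that libraries of 1 line came from separate cultures, so p-values measure only the spread between these samples.

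The libraries held 22887020 to 37505004 estimated counts, so a count of 0 allows up to 3 counts, or 0.0800 to 0.131 CPM (counts scaled to the library total). Levels within a library are given in TPM, which corrects for transcript length. Of 13 kidney epithelial markers, 10 had at least 10 TPM in every kidney library, whereas *Epcam*, *Krt19* and *Cldn7* were under 1 TPM in all 4. Of 10 fibroblast markers, 6 reached 10 TPM in Tsc2+/+ MEFs and 7 in Tsc2-/- MEFs. *Tsc2* RNA was present in every library labelled Tsc2-/- or Tsc2-null, at 10.5 TPM in Tsc2-/- MEFs, 49.1 and 44.0 TPM in untreated MKOC and TJ cells and 19.5 and 19.1 TPM in the treated ones, beside 22.6 TPM in Tsc2+/+ MEFs. The transcript sums do not show which exons the reads covered, so the genotypes are given as the libraries are labelled.

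IGF-binding proteins are secreted proteins that hold IGF1 and IGF2 in the extracellular space, prolong their lifetime in blood, and limit or release them at the IGF1 receptor. Proteases free the ligand by cleaving the binding protein. The *Igf2* mRNA-binding proteins are unrelated to them in structure. They are cytoplasmic proteins with RRM and KH domains that bind *Igf2* and many other mRNAs and control their location, stability and translation, and they are best known from embryonic tissue and tumors. Rapamycin inhibits mTORC1, the kinase complex that the TSC1-TSC2 complex restrains.

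The IGF-binding protein genes were expressed at low levels in the kidney lines, and *Igfbp7* made up most of what was there. *Igfbp7* encodes a binding protein of low affinity for IGFs that is found in basement membrane. It was the leading family member in 5 of the 6 libraries. In MEFs its level was 86.8 TPM (Tsc2+/+) and 259 TPM (Tsc2-/-). In the kidney lines it was 15.6 TPM (MKOC untreated), 16.5 TPM (MKOC rapamycin), 22.0 TPM (TJ untreated) and 29.4 TPM (TJ rapamycin). *Igfbp7* thus took 67.6% to 81.2% of the summed TPM of the family in the kidney lines and 77.8% in Tsc2+/+ MEFs, but 12.4% in Tsc2-/- MEFs. In that last library *Igfbp5* led with 54.8%. The summed TPM of the family was 21.5 to 36.2 in the kidney lines, 111.6 in Tsc2+/+ MEFs and 2082 in Tsc2-/- MEFs. The plot of family shares by library shows this change of composition.

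**Figure D1:**
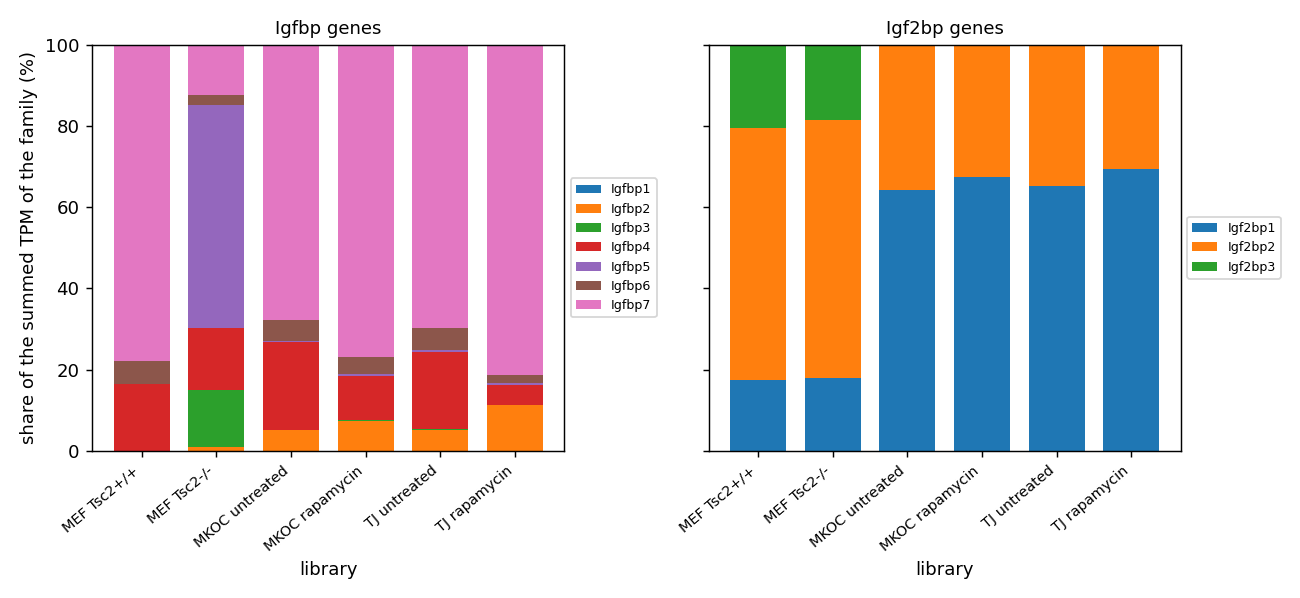
Share of the summed TPM of each family (percent, vertical axis) taken by each gene in the 6 libraries (horizontal axis, 1 library per bar). *Igfbp7* takes 67.6% to 81.2% in the kidney lines and *Igfbp5* takes 54.8% in Tsc2-/- MEFs. On the right, with all transcripts summed, *Igf2bp2* leads in both MEF libraries and *Igf2bp1* in the 4 kidney libraries, where *Igf2bp2* leads if protein-coding transcripts alone are summed.

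*Igfbp1*, a gene best known from liver, had 0 counts in all 6 libraries. *Igfbp3*, whose product carries most IGF in serum, had 0 counts in Tsc2+/+ MEFs and 1 to 2 counts in each kidney library, all at or under the floor of 3 counts. Its level in Tsc2-/- MEFs was 291 TPM. *Igfbp5*, which encodes a binding protein that attaches to extracellular matrix, was nearly as confined. It had 7 counts (0.0387 TPM) in Tsc2+/+ MEFs, 5 to 15 counts (0.0606 to 0.148 TPM) in the kidney libraries and 1141 TPM in Tsc2-/- MEFs. These genes lie in pairs of opposite strand. *Igfbp1* and *Igfbp3* are 3539 bases apart on chromosome 11, *Igfbp2* and *Igfbp5* are 5457 bases apart on chromosome 1, and 0 protein-coding genes lie between the members of either pair (GENCODE M21, GRCm38). *Igfbp3* at 291 TPM stood beside a silent neighbour in Tsc2-/- MEFs, whereas *Igfbp2* and *Igfbp5* were both high there.

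The remaining family members were low in the kidney lines but above the floor. *Igfbp4* encodes a binding protein that mainly inhibits IGF action and is cut by the protease PAPP-A. It had 18.4 TPM in Tsc2+/+ MEFs, 318.5 TPM in Tsc2-/- MEFs, 4.98 and 2.35 TPM in untreated and rapamycin-treated MKOC cells, and 6.004 and 1.77 TPM in untreated and treated TJ cells. *Igfbp6*, whose product prefers IGF2, had 6.29 TPM in Tsc2+/+ MEFs, 50.3 TPM in Tsc2-/- MEFs and 0.772 to 1.67 TPM in the kidney libraries. For both genes every kidney library lay below both MEF libraries. *Igfbp2*, which is abundant in fetal tissue, had 0.0398 TPM from 1 count in Tsc2+/+ MEFs, 22.4 TPM in Tsc2-/- MEFs, and 1.17, 1.58, 1.66 and 4.06 TPM in untreated MKOC, treated MKOC, untreated TJ and treated TJ cells. For *Igfbp2* the kidney lines lay between the MEF libraries.

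**Figure D2:**
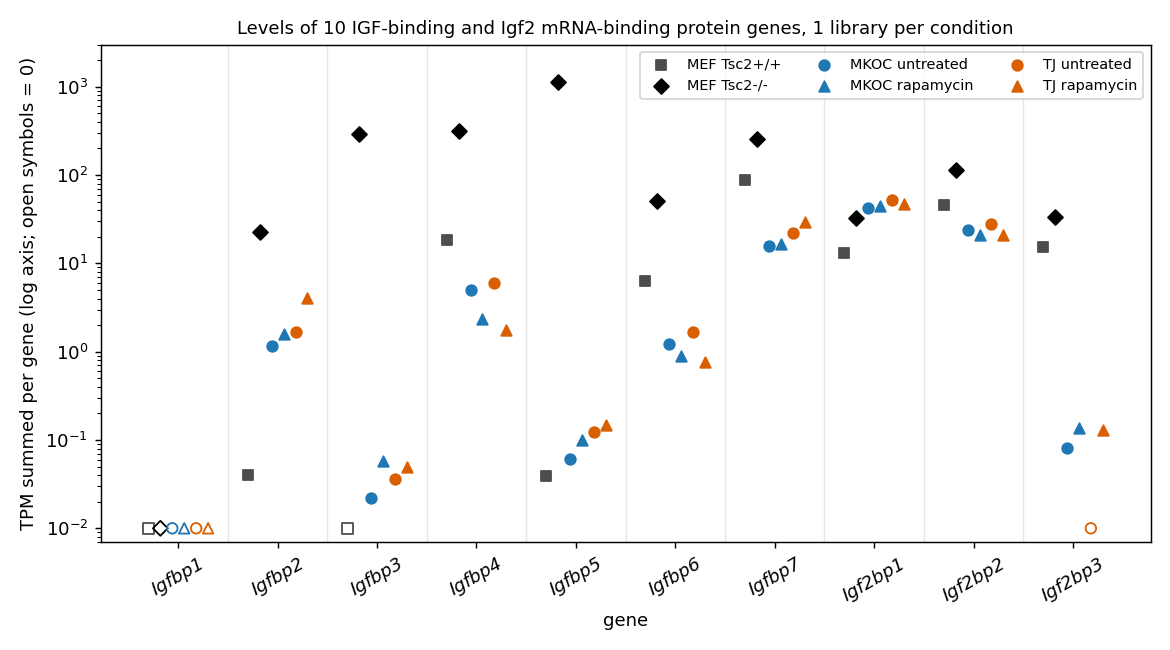
TPM summed per gene (vertical axis, log scale) for the 10 genes (horizontal axis), with 1 symbol for each library and open symbols for 0 TPM. Tsc2-/- MEFs are highest for 8 of the 10 genes, *Igf2bp1* is higher in the kidney libraries (42.4 to 52.2 TPM) than in either MEF library, and *Igfbp1* is at 0 throughout.

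Between the MEF lines, each member was set beside the background of that comparison. With 1 added to each TPM value, 4 of the 10 members were at least 8-fold higher in Tsc2-/- MEFs and 0 were at least 8-fold lower, where 3.24% of the 12771 genes with at least 1 TPM in either library were at least 8-fold higher and 0.525% at least 8-fold lower. The folds were 1099 for *Igfbp5*, 292 for *Igfbp3*, 22.5 for *Igfbp2* and 16.5 for *Igfbp4*. *Igfbp2*, *Igfbp3* and *Igfbp5* entered this count only through the Tsc2-/- library, since they were under 1 TPM in the other, and the added 1 TPM sets their folds. *Igfbp6* at 7.03-fold lay just under that line and *Igfbp7* was at 2.96-fold. By CPM, the Tsc2-/- library exceeded the Tsc2+/+ library 22943-fold for *Igfbp5* (95% counting interval 11135 to 57066) and 15.6-fold for *Igfbp4* (14.5 to 16.8). The difference in *Igfbp3*, with 0 counts in the Tsc2+/+ library, was at least 5249-fold, computed against 3 counts there. *Igfbp2* had 1 count there and a CPM ratio of 529.5 (94.4 to 20976). Genes of at least 10 TPM in both libraries had a median ratio of 1.31, which is part of every TPM fold. The *Igf2bp* genes differed less, at 2.41-fold for *Igf2bp1*, 2.49-fold for *Igf2bp2* and 2.13-fold for *Igf2bp3*, or 1.60, 2.02 and 1.69 times by CPM. The share of TPM taken by transcripts under 300 bases was 20.9% (Tsc2+/+) and 7.12% (Tsc2-/-), which enters the TPM folds but not the CPM ratios. As each genotype had 1 library, these differences were not checked by replicates and no p is given. In the Tsc2-/- library 7 of 9 mesothelial markers also reached 10 TPM (summed 498.6 TPM), against 0 of 9 in the Tsc2+/+ library (summed 2.72 TPM). The marker *Calb2* was at 0 in both, and *Krt8* was at 0.0590 TPM in the Tsc2+/+ and 0.477 TPM in the Tsc2-/- library. Any part of the mesothelial markers in the *Igfbp* levels was not tested. More cells of a type and more RNA per cell cannot be told apart in bulk RNA.

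The 100 bases before the RefSeq transcription start (GRCm38.p6) are shown for the 4 members past 8-fold between the MEF lines and for *Igfbp7* and *Igf2bp3*, the members called between kidney lines and MEFs. Capitals mark matches on either strand to TATAAA or to GGGCGG, the GC box, and no 2 matches overlap.
Igfbp2 (chr1:72824380-72824479, plus strand): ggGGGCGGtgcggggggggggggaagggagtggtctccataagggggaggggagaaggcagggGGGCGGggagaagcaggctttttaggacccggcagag
Igfbp3 (chr11:7213924-7214023, minus strand): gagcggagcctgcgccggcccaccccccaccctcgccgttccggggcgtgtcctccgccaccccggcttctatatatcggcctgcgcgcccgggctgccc
Igfbp4 (chr11:99041144-99041243, plus strand): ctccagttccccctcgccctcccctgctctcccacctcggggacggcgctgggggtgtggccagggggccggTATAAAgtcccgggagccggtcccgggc
Igfbp5 (chr1:72874866-72874965, minus strand): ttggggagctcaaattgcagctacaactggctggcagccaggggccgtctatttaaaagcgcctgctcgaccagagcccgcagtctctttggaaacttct
Igfbp7 (chr5:77408046-77408145, minus strand): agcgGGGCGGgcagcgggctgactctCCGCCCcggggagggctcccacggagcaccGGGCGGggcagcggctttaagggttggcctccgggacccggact
Igf2bp3 (chr6:49214955-49215054, minus strand): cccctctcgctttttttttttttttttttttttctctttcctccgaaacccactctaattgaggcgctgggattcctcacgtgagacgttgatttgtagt

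*Igfbp4* carried TATAAA at positions -28 to -23 from its start, and 12.4% of 32851 RefSeq promoters held that motif within 250 bases upstream. *Igfbp2* held 3 GC boxes in that window and *Igfbp7* held 4, whereas *Igfbp3*, *Igfbp5* and *Igf2bp3* held 0. A GC box was present in 32.7% of all promoters. The CpG count of the window ran from 10 in *Igfbp5* to 32 in *Igfbp3* among the 6 sequences, where the median over all promoters was 6. The STAT motif TTCNNNGAA, which was in 7.02% of all promoters, had 0 matches in the windows of the 9 members with a promoter in the table. A match is a description of letters in this window. By exact letters, the 4 members that were high together in Tsc2-/- MEFs did not share any of the 3 motifs searched. Near matches, such as tatatat in *Igfbp3* and tatttaa in *Igfbp5*, were not counted.

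With rapamycin, *Igfbp4* fell in both kidney lines and no other member passed the test. In CPM scaled by TMM, which corrects for differences in composition between libraries, *Igfbp4* was at 5.69 in untreated and 2.36 in treated MKOC cells, and at 6.48 in untreated and 2.63 in treated TJ cells. Both treated libraries lay below both untreated ones. The treated level was 0.414 times the untreated level in MKOC cells (95% counting interval 0.299 to 0.566) and 0.406 times in TJ cells (0.304 to 0.539). The log2 change over both lines was -1.28 ± 0.24 (SE, n = 2 lines), with an adjusted p of 0.00271 in edgeR's quasi-likelihood test with the line as a covariate. Of all genes tested, 1.56% had a log2 change at least as far down. The members called were thus 1 lower and 0 higher of 8 tested, while 17.4% of 12952 genes were called lower, 17.5% higher and 34.9% in either direction, so the share of members called was not above the background. *Igfbp1* and *Igfbp3* had too few counts to be tested. With 1 library left out, which also removes the line from the model, the log2 change was -1.37 to -1.18. The call was lost in each of these fits (edgeR adjusted p = 0.0984 to 0.219). The fits without treated MKOC or treated TJ cells called 218 and 273 genes higher and 183 and 238 lower of 12952, with an adjusted p of 0.128 and 0.0984 for *Igfbp4* in edgeR. Those without an untreated library called 0 genes (2297 and 2611 at an unadjusted p under 0.05).

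**Figure D3:**
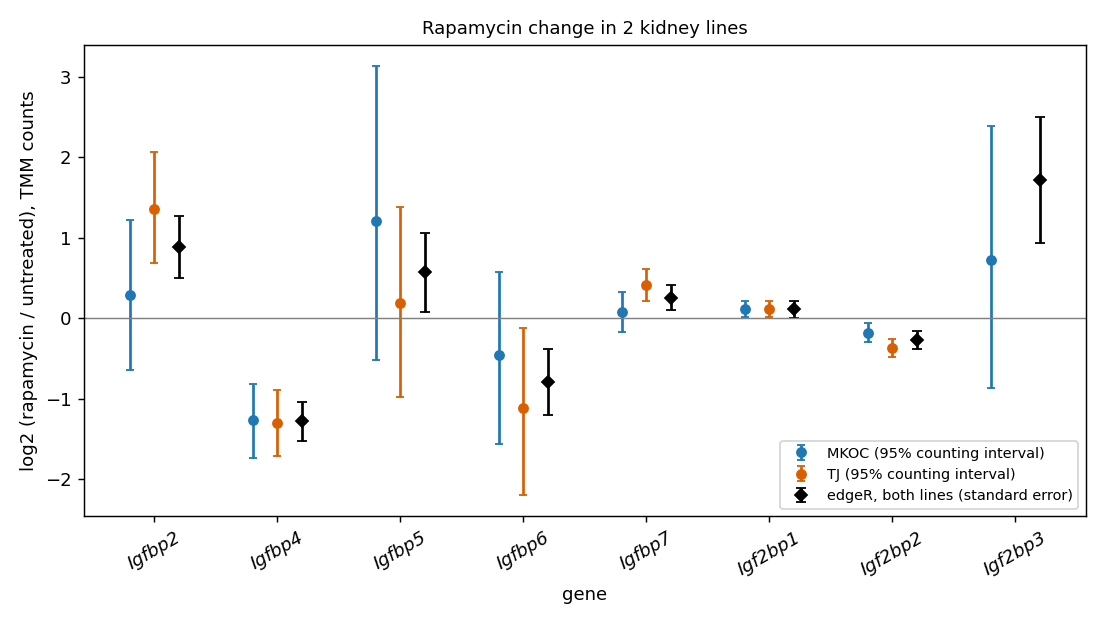
Log2 ratio of rapamycin to untreated TMM-scaled counts (vertical axis) for the 8 tested genes (horizontal axis), in MKOC cells and TJ cells with 95% counting intervals and as the edgeR estimate over both lines with its standard error. *Igfbp4* is near -1.28 in both lines. *Igf2bp3* has no TJ point because the untreated TJ library had 0 counts.

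The other secreted members were not called. *Igfbp2* was at 0.750 and 0.917 TMM-scaled CPM in untreated and treated MKOC cells, and at 0.974 and 2.48 in TJ cells. The treated TJ library was the highest of the 4, at 2.55 times the untreated one (1.60 to 4.18), while the ratio in MKOC cells was 1.22 (0.640 to 2.33). Over both lines the log2 change of *Igfbp2* was 0.88 ± 0.39 (edgeR adjusted p = 0.102), and it was 0.089 without the treated TJ library and 1.52 without the treated MKOC library. *Igfbp6* was at 0.724 times its untreated level in MKOC cells (0.337 to 1.49) and 0.460 times in TJ cells (0.219 to 0.917), on 13 to 28 counts per library. Its log2 change was -0.80 ± 0.41 (edgeR adjusted p = 0.158). *Igfbp7* was at 1.05 times its untreated level in MKOC cells (0.886 to 1.25) and 1.33 times in TJ cells (1.16 to 1.52). The log2 change of *Igfbp7* was 0.25 ± 0.16 (edgeR adjusted p = 0.236). *Igfbp5* moved from 5 to 9 counts in MKOC cells and from 13 to 15 in TJ cells, and its log2 change of 0.57 ± 0.49 (edgeR adjusted p = 0.398) was not detectable at this depth. *Igfbp2* stood above *Igfbp4* in treated TJ cells, at 4.06 TPM (95% Wilson interval 3.20 to 5.16) against 1.77 TPM (1.40 to 2.23), and below it in the other 3 kidney libraries.

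Among the *Igf2* mRNA-binding protein genes, *Igf2bp1* and *Igf2bp2* were well expressed in the kidney lines and *Igf2bp3* was nearly absent. *Igf2bp2*, the member that is also common in adult tissue, was at 45.8 TPM (Tsc2+/+) and 115 TPM (Tsc2-/-) in the MEF libraries. In the kidney libraries it had 23.6 and 21.2 TPM in untreated and treated MKOC cells and 27.9 and 20.9 TPM in untreated and treated TJ cells. With rapamycin *Igf2bp2* was at 0.880 times its untreated level in MKOC cells (0.811 to 0.954) and 0.773 times in TJ cells (0.715 to 0.835). Both intervals lay under 1, but they cover counting error only. Over both lines the log2 change of -0.28 ± 0.11 did not pass (edgeR adjusted p = 0.0783). The most counted *Igf2bp2* transcript over all libraries, ENSMUST00000134188, is annotated as a retained intron. With rapamycin it went from 584.5 to 444.1 counts in MKOC cells and from 664.8 to 379.2 in TJ cells. The protein-coding transcripts went from 12.6 to 11.1 TPM in MKOC cells and from 14.5 to 13.6 TPM in TJ cells. *Igf2bp3*, a gene known mainly from embryo, placenta and tumors, had 15.2 TPM in Tsc2+/+ and 33.5 TPM in Tsc2-/- MEFs. It had 0 to 10 counts in the kidney libraries (0 to 0.135 TPM). From 7 to 9 counts in MKOC cells and 0 to 10 in TJ cells, its log2 change with rapamycin was 1.71 ± 0.78 (edgeR adjusted p = 0.115).

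*Igf2bp1*, whose product localises *Actb* mRNA and stabilises *Myc* mRNA, was the leading *Igf2bp* gene in the kidney lines by TPM summed over all transcripts, but not over protein-coding transcripts. Its level was 13.0 TPM in Tsc2+/+ MEFs, 32.7 TPM in Tsc2-/- MEFs, 42.4 and 44.3 TPM in untreated and treated MKOC cells, and 52.2 and 47.5 TPM in untreated and treated TJ cells. Every kidney library lay above both MEF libraries. On TMM-scaled counts the order was the opposite, with 66.1 and 97.8 CPM in Tsc2+/+ and Tsc2-/- MEFs against 57.9 and 58.6 in untreated MKOC and TJ cells. The scales part at the level of transcripts. The long protein-coding transcript ENSMUST00000013559 (15 exons, 8378 bases, chr11:95957163-96005940 in GRCm38, minus strand) had 9.02 TPM in Tsc2+/+ MEFs, 18.5 TPM in Tsc2-/- MEFs and 8.24 to 9.44 TPM in the kidney libraries. The 3 transcripts of 576, 599 and 690 bases, annotated as non-coding processed transcripts of the same gene, summed to 3.85 and 13.9 TPM in Tsc2+/+ and Tsc2-/- MEFs and to 33.6 to 43.4 TPM in the kidney libraries. They took 15.9% to 21.6% of the gene's counts in kidney cells and 2.35% and 4.06% in MEFs. As shares of the gene's TPM these were 77.5% to 83.3% in kidney cells and 29.7% and 42.5% in MEFs. By the long transcript alone, the kidney libraries lay on either side of Tsc2+/+ MEFs and below Tsc2-/- MEFs. Over protein-coding transcripts, an alternative chosen after seeing the data, *Igf2bp2* stood above *Igf2bp1* in all 6 libraries, at 11.1 to 14.5 TPM against 8.24 to 9.44 TPM in the kidney lines. How Kallisto divided reads between the overlapping transcripts was not tested.

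**Figure D4:**
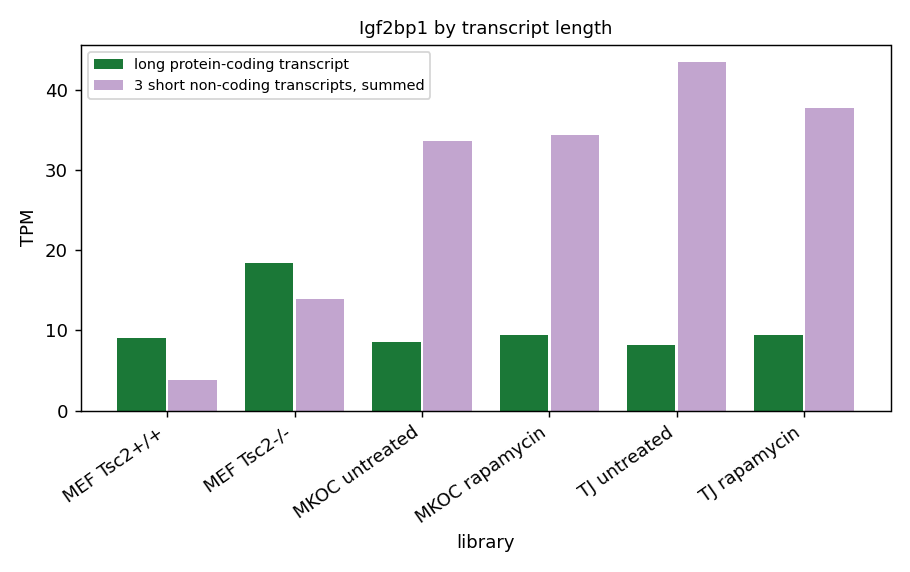
TPM (vertical axis) of the long protein-coding *Igf2bp1* transcript and of its 3 short non-coding transcripts summed, in the 6 libraries (horizontal axis, 1 library per pair of bars). The long transcript is at 8.24 to 9.44 TPM in the kidney libraries and 9.02 TPM in Tsc2+/+ MEFs, while the short transcripts reach 33.6 to 43.4 TPM only in the kidney libraries.

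With rapamycin, *Igf2bp1* was at 1.08 times its untreated TMM-scaled count in MKOC cells (1.01 to 1.16) and 1.08 times in TJ cells (1.005 to 1.15). The log2 change was 0.11 ± 0.11 (edgeR adjusted p = 0.452). On the log2(TPM + 1) scale the change was 0.06 in MKOC cells and -0.13 in TJ cells, so its sign depended on the scale.

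The untreated kidney lines were then compared with the MEFs, as 2 libraries against 2, with edgeR's quasi-likelihood test. All 8 members tested had a negative log2 difference, kidney over MEF. For *Igf2bp1* the sign depended on the scale. By TPM summed over all transcripts every kidney library lay above both MEF libraries (42.4 to 52.2 against 13.0 and 32.7 TPM). Of the 8 members, 2 were called lower, while 5.2% of 13473 genes were called lower, 4.74% higher and 9.93% in either direction. *Igf2bp3* was at 0.238 and 0 TMM-scaled CPM in MKOC and TJ cells against 55.0 and 86.4 in Tsc2+/+ and Tsc2-/- MEFs, a fitted log2 difference of -9.12 ± 1.22 (edgeR adjusted p = 0.0326). *Igfbp7* was at 9.99 and 14.0 against 70.1 and 150.6, a log2 difference of -3.20 ± 0.49 (edgeR adjusted p = 0.0388). For both genes the groups did not overlap. How many of all genes do so with 2 libraries against 2 was not counted, here or in the other comparisons. *Igfbp7* overlaps *Polr2b* and *Igf2bp3* overlaps *Malsu1* on the opposite strand, and the use of strand in the counting is not given in the sources used here, so reads of each pair may not be fully separated. The call of *Igfbp7* was lost in limma on log2(TPM + 1) (adjusted p = 0.0615), with a log2 difference of -2.95. Without either kidney library edgeR called 0 of 13473 genes (1785 and 1775 at an unadjusted p under 0.05), so those fits do not test either call. *Igfbp4* (-4.84), *Igfbp6* (-4.21) and *Igf2bp2* (-1.70) were also lower in both kidney lines than in either MEF line but had edgeR adjusted p-values of 0.108, 0.0813 and 0.0633. *Igfbp2* (-2.97, edgeR adjusted p = 0.426) and *Igfbp5* (-12.61, edgeR adjusted p = 0.164) rested on the Tsc2-/- library. Without that library their log2 differences were 4.76 and 0.73 in edgeR. That fit compares the kidney lines with 1 MEF library, in which *Igfbp2* had 1 count, takes the spread from the kidney lines alone and called 3867 genes higher and 3687 lower of 13473, so its p-values are not used. Cell type, line, culture, *Tsc2* genotype and the p53-/- genotype, which is labelled for the MEFs only, cannot be told apart in this comparison.

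Between the kidney lines, *Igfbp7* was the member called. Its TMM-scaled CPM were 10.02 and 10.6 in untreated and treated MKOC cells and 14.0 and 18.6 in TJ cells, so that both TJ libraries lay above both MKOC libraries. The log2 difference of TJ over MKOC was 0.65 ± 0.16 (edgeR adjusted p = 0.0302, treatment as a covariate). That is 1 member higher and 0 lower of 8 tested, beside 5.47% of 12952 genes higher, 3.32% lower and 8.79% in either direction. The call was lost in DESeq2 (adjusted p = 0.124) and in limma on log2(TPM + 1) (adjusted p = 0.0528), with log2 differences of 0.65 and 0.63. With 1 library left out, which also removes treatment from the model, the log2 difference was 0.44 without the treated TJ library to 0.87 without the untreated TJ library. The call was lost in each of these fits. Those without the untreated and without the treated TJ library called 87 and 29 genes higher and 12 and 13 lower of 12952, with an adjusted p of 0.806 and 0.99993 for *Igfbp7* in edgeR, and those without an MKOC library called 0 genes (614 and 611 at an unadjusted p under 0.05). *Igfbp2* had a log2 difference of 0.94 and *Igfbp5* of 0.93 that did not pass (edgeR adjusted p = 0.177 and 0.312). *Igf2bp3*, on 0 to 10 counts, was the member with a negative value, at -0.94 (edgeR adjusted p = 0.532). *Igfbp4*, *Igfbp6*, *Igf2bp1* and *Igf2bp2* had log2 differences of 0.17, 0.15, 0.01 and 0.09 (edgeR adjusted p = 0.700 to 0.962).

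Other genes of the pathway were counted from lists chosen by their known roles. Of 11 IGF ligands, receptors and adaptors, 8 were tested with rapamycin, and 4 rose, 1 fell and 3 did not pass, where 17.5% of all genes rose and 17.4% fell. *Irs2*, which links both receptors to PI3K, rose from 6.31 to 16.4 TPM in MKOC cells and from 5.73 to 11.9 TPM in TJ cells, a log2 change of 1.21 ± 0.13 (edgeR adjusted p = 0.00014). *Igf1r*, the signalling receptor, rose from 15.6 to 26.7 and from 15.0 to 24.2 TPM, with a log2 change of 0.73 ± 0.11 (edgeR adjusted p = 0.000762). *Insr* and *Irs1* also rose, by 0.65 and 0.63 on the log2 scale, and are named after their values were seen. *Igf2r*, the receptor that clears IGF2, fell from 0.314 to 0.140 and from 1.12 to 0.202 TPM, a log2 change of -1.10 ± 0.33 (edgeR adjusted p = 0.0272). Its counts were low, at 55 and 19 in untreated and treated MKOC cells and 65 and 32 in TJ cells. The ratios of TMM-scaled counts were 0.443 and 0.487, so the larger fall of TPM in TJ cells was not seen in counts. Of the ligands, *Igf1* was at 0.306 and 0.391 TPM in untreated and treated MKOC cells and at 3.43 and 2.69 TPM in TJ cells, where it lay in the range of *Igfbp2* and *Igfbp4*. The log2 difference of *Igf1* for TJ over MKOC was 3.74 ± 0.33 (edgeR adjusted p = 0.000139). With rapamycin *Igf1* had a log2 change of -0.41 and *Igf2* of -0.65 (edgeR adjusted p = 0.328 and 0.237), and *Igf2* was at 0.408 to 0.717 TPM in the kidney libraries. The median log2 change of the 8 was 0.28, beside 0.02 over all genes.

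Of 12 proteases of IGF-binding proteins and their inhibitors, 6 were tested, and 0 rose, 3 fell and 3 did not pass, with a median log2 change of -0.37. With 34.9% of all genes called in this test, calls among 6 or 7 genes are not read as particular to a list. Those that fell were *Htra1* (-0.54), *Adam9* (-0.52) and *Adamts1* (-0.62), named after their values were seen. *Pappa*, whose product cuts the IGFBP4 protein and which is also named after its values were seen, was at 0.00591 to 0.0306 TPM in the kidney libraries and was not tested. Of 9 genes that encode CCN proteins and other proteins with an IGFBP-like domain, 7 were tested, and 5 rose, 0 fell and 2 did not pass, with a median log2 change of 0.99. *Ctgf*, a matrix-associated CCN protein, rose from 19.8 to 145.3 TPM in MKOC cells and from 26.3 to 111.6 TPM in TJ cells, a log2 change of 2.47 ± 0.17 (edgeR adjusted p = 1.18e-05). *Cyr61* rose by 1.18 ± 0.16 and *Kazald1* by 1.03 ± 0.36 on the log2 scale (edgeR adjusted p = 0.000469 and 0.0477). In the same libraries 6 kidney epithelial markers rose and 0 fell of 10 tested, beside 17.5% and 17.4% of all genes, and their summed level went from 1760 to 2693 TPM in MKOC cells and from 1929 to 3004 TPM in TJ cells. Of the markers of other cell types, 2 of 8 fibroblast, 3 of 4 mesothelial (*Krt8* and *Krt18*, which are also epithelial, and *Msln*) and 1 of 4 immune and endothelial markers tested rose, and 0 fell. Their part in the changes of the binding protein genes was not tested.

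Of 15 genes known with the *Igf2* mRNA-binding proteins as targets, partners or regulators, 14 were in the table and 11 were tested. With rapamycin 2 rose, 4 fell and 5 did not pass, beside 34.9% of all genes called in either direction. Their median log2 change was -0.00198. All of these calls were lost with the cell line left out of the model, where 559 of all genes were called higher and 716 lower. *Hmga2*, which encodes a chromatin protein whose gene shares let-7 regulation with the *Igf2bp* genes, was low in the kidney lines but rose from 0.296 to 1.09 TPM in MKOC cells and from 0.0784 to 0.265 TPM in TJ cells, a log2 change of 1.82 ± 0.40 (edgeR adjusted p = 0.00629). *Lin28b*, a repressor of let-7, was at 6.82 TPM in Tsc2-/- MEFs, 0 in Tsc2+/+ MEFs and 0.0492 to 0.169 TPM in the kidney libraries, and was not tested.

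The genes whose levels followed the most variable members were found by the root mean square difference of centred log2(TPM + 1) over the 6 libraries, among 10106 genes. For *Igfbp3* the nearest was *Grem1* (difference 0.05), at 329 TPM in Tsc2-/- MEFs and 0.0510 to 0.161 TPM elsewhere, followed by *Mest* (0.20) and *Upk3b* (0.36). For *Igfbp5* they were *Gm13394* (0.44), *Grem1* (0.68) and *Mest* (0.82). These orders rest on 1 library, the Tsc2-/- MEFs. For *Igfbp4* they were *Capn6* (0.36), *Emilin2* (0.44) and *Ptx3* (0.44).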

How the data were processed

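The authors trimmed the reads (Trimmomatic 0.32) and ran Kallisto, whose version is not given in the sources used here, and deposited estimated counts, TPM and lengths for 88198 transcripts. The methods name hg38, but the transcript identifiers are mouse. The deposited ratio of the MEF libraries, a fold change per transcript, is the authors' comparison, from which only the gene symbols were taken. Values were summed per symbol, and transcripts without a symbol held 0.372% to 0.468% of estimated counts and were left out.

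Estimated counts were rounded, filtered with filterByExpr, scaled by TMM and fitted in edgeR. Its quasi-likelihood test was adjusted over all genes by the Benjamini-Hochberg method, with a threshold of 0.05. SE is the log2 change divided by the square root of F. The rapamycin fit had the cell line as a block, since GEO's labels give each library's line. Within a line, deviations from the treatment means had a correlation of 0.56 over 12952 genes, which is the same value for both lines by construction. MEF folds used TPM with 1 added. Intervals are 95%, exact for ratios of counts and Wilson for TPM of 1 library, and cover counting error only. Genes beyond the members were named if past the threshold with a log2 change of at least 1 (at most 4 per list). *Igf2*, *Igf1*, *Igf1r*, *Igf2r*, *H19*, *Lin28b* and *Hmga2* were named with them. Exceptions are genes that the text says were named after their values were seen. With rapamycin *Krt7* (log2 change 1.16, edgeR adjusted p = 3.33e-05) and *Col3a1* (1.53, edgeR adjusted p = 0.0425) met the rule but are named only here. The other markers in the text were named outside the rule, with their values seen. *H19* was not analysed here. Members and lists were chosen with earlier results of these data known. Promoters are from RefSeq (GRCm38.p6) and were matched for 9 of 10 members. Other positions are from GENCODE M21.

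In simulated data with 200 genes changed by a log2 of 2, the rapamycin model recovered 197 with 12 false calls among 12952 genes. The line model recovered 194 with 7 of 12952, and the kidney against MEF model 197 with 9 of 13473. Every gene was simulated with the same fixed dispersion, and libraries differed only in depth and in the change set. These numbers therefore check that the fits run as meant, and they do not give power or error in the real data. The alternatives were RLE and upper-quartile normalization, DESeq2, no filter, limma on log2 TPM, other models, thresholds and pseudocounts, and leaving out each library. Tools were edgeR 4.0.16, DESeq2 1.42.0 and limma 3.58.1 in R 4.3.3, and scipy 1.17.1, pandas 2.3.3 and matplotlib 3.10.9 in Python 3.11.15.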

Additional observations from a re-analysis of the deposited data

Results flagged for a closer look

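*Igf2bp1* was singled out because its TPM moved in opposite directions with rapamycin in the 2 kidney lines. On the log2(TPM + 1) scale the change was 0.059 in MKOC cells and -0.13 in TJ cells, with 1 library for each condition. The difference between the lines was not tested. On TMM-scaled counts the ratio of treated to untreated was 1.08 in both lines.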

How the results depend on the processing

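With rapamycin, *Igfbp4* alone was called under every normalization, filter, tool and threshold tried, and without the replicate block (log2 change -1.28, edgeR adjusted p = 0.0464), although genes called over the whole table then went from 2267 higher and 2259 lower to 559 and 716. With 1 library left out, 0 to 0 members were called in edgeR (1 to 2 at an unadjusted p under 0.05). Those fits drop the line or treatment term, because no residual degrees of freedom remain with it, and without an untreated library edgeR called 0 of all genes (2297 and 2611 at an unadjusted p under 0.05), while without a treated one it did call genes and *Igfbp4* was still lost. Without the replicate block, genes called fell from 5 to 3 for IGF ligands, receptors and adaptors, 5 to 2 for CCN and related genes, 6 to 0 for genes known with the *Igf2* mRNA-binding proteins, 6 to 3 for kidney epithelial, 2 to 0 for fibroblast and 1 to 0 for immune and endothelial markers. DESeq2 called 3 CCN and related genes and 1 fibroblast marker.

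Between TJ and MKOC cells 0 members were called in DESeq2, beside 407 genes higher and 223 lower of 12952 (709 and 430 as reported). The same held in limma with 1 or 5 added to TPM, beside 431 and 174 or 318 and 118 genes. With treatment left out 0 of all genes were called, so that fit cannot test a member. On the most counted transcript of each member (chosen after seeing the data) 0 members were called, beside 713 and 436 genes. These fits had 1 to 2 members at an unadjusted p under 0.05. At an adjusted p under 0.01, 0 members were called. Between kidney lines and MEFs, 6 members were called in DESeq2, beside 1906 genes higher and 2063 lower of 13473 (638 and 700 as reported). With all 6 libraries 5 members were called, beside 1678 genes higher and 1586 lower. In limma 1 was called with 1, 0.1 or 5 added, beside 683 and 558, 744 and 652, and 648 and 446 genes. At an adjusted p under 0.01, 0 members were called. Members past 8-fold between the MEF lines were 3 with 5 TPM added and 4 under the other pseudocount, scalings and features, and 5 were past 4-fold. The share of all genes was counted only at 8-fold with 1 TPM added, so these counts have no background. Of the 9 places for the genes nearest to a member, where *Grem1* and *Mest* each stand for both *Igfbp3* and *Igfbp5*, 4 were shared with 0.1 added.

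Between kidney lines and MEFs, fits without a kidney library called 0 genes in all, and those without a MEF library took the spread from the kidney lines alone. Each log2 value that turned had not passed as reported. For kidney over MEF, the range with 1 library left out was -3.97 to 4.76 for *Igfbp2* and -13.62 to 0.73 for *Igfbp5*, highest without Tsc2-/- MEFs, and limma (1, 0.1 and 5 added) gave 1.15, 1.19 and 1.0003 for *Igf2bp1*. With rapamycin these fits gave -0.037, -0.038 and -0.035 for *Igf2bp1*, and the ranges with 1 library left out were 0.089 to 1.52 for *Igfbp2*, -0.029 to 1.47 for *Igfbp5* and -0.19 to 0.63 for *Igfbp7*. For TJ over MKOC, limma gave -0.025 and -0.065 for *Igfbp4* (1 and 0.1 added), the most counted transcripts gave -0.039 for *Igf2bp1* and -0.057 for *Igf2bp2*, and the ranges were -0.60 to 0.95 for *Igfbp4*, -0.47 to 0.62 for *Igfbp6*, -0.045 to 0.084 for *Igf2bp1*, -0.081 to 0.27 for *Igf2bp2* and -6.06 to 0.27 for *Igf2bp3*. Depth limits *Igfbp1*, *Igfbp3*, *Igfbp5* and *Igf2bp3* in the kidney lines, where counts were 0 to 15 per library.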
